A study of Arabidopsis thaliana with 9 samples.

Results

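Transcripts of 10 osmotic and abscisic acid responsive genes were followed by RNA sequencing in root tips of Arabidopsis thaliana. They are OSM34, LEA4-5, RD29A, RD29B, RAB18, COR15A, KIN1, COR47, ERD10 and P5CS1, picked by name out of 33560 gene identifiers. They were chosen with the values of these same libraries known, so their levels and genotype differences are given as a description; no p-value is given for them, and their calls in the fit of all genes are only counted beside those of all genes. The 9 libraries were 3 of Col-0, the wild type, 3 of wox5-1, a mutant of the quiescent-centre homeobox factor WOX5, and 3 of seu-3, a mutant of the transcriptional co-regulator SEUSS (SEU). Seedlings of all 3 genotypes were 5 days old, had been kept cold for 2 days, and grew upright with 1% sucrose in 16 h light and 8 h dark. The tissue was root tip; its length is given as 1 mm by the series and as 3 mm by the protocol for extraction. No group received abscisic acid, salt, drought or cold as a treatment after germination, and the labels do not say how many roots were pooled or whether replicates were sown separately, so that spread and p-values describe these samples and may be technical.

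Abscisic acid is the hormone of water deficit. It binds PYR/PYL receptors, which then hold back clade A protein phosphatases, and the SnRK2 kinases freed from these phosphatases activate ABF transcription factors that bind ABRE elements in promoters. A parallel route, through DREB/CBF factors and DRE elements, answers cold and dehydration, and RD29A, which carries both kinds of element, is the usual reporter of the pair. The products of both routes include hydrophilic late embryogenesis abundant (LEA) proteins and dehydrins, which protect membranes and proteins in drying cells, and enzymes that make proline, an osmolyte.

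The 10 genes lie on chromosomes 1, 2, 4 and 5, and 6 of them belong to tandem pairs of related genes. RD29B ends 1185 bases before RD29A on chromosome 5, and COR47 and ERD10 lie 1029 bases apart on chromosome 1. KIN1 lies 892 bases from its relative KIN2, and COR15A lies 7 bases from COR15B. Coding sequences were 95.0% identical between KIN1 and KIN2, 83.8% between COR15A and COR15B, 82.3% between COR47 and ERD10 and 79.9% between RD29A and RD29B. The longest identical run was 58 bases in the KIN pair, 41 in the RD29 pair, 32 in the COR47 and ERD10 pair and 31 in the COR15 pair. How the authors divided fragments among such copies is not given in the sources used here, so the split between KIN1 and KIN2 is the least certain. RAB18 overlaps AT5G66410 and P5CS1 overlaps AT2G39795, both on the other strand; strandedness is not stated, and fragments of these neighbours may be included.

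The promoters of the genes that differed most between genotypes, together with RD29B as the tandem partner of RD29A, are shown as the 250 bases before the annotated start in the RefSeq TAIR10.1 genome, so that their elements can be set against the levels. Capitals mark the ABRE core ACGTG and the DRE core CCGAC on either strand, and overlapping matches of 1 motif, as in the palindrome CACGTG, count as 1.

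OSM34, chr4:7026225-7026474, minus strand: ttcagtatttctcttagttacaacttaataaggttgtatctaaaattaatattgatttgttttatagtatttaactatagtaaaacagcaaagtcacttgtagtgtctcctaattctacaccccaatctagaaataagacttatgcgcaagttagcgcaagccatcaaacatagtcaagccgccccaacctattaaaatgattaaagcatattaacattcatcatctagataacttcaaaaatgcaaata

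LEA4-5, chr5:2090431-2090680, minus strand: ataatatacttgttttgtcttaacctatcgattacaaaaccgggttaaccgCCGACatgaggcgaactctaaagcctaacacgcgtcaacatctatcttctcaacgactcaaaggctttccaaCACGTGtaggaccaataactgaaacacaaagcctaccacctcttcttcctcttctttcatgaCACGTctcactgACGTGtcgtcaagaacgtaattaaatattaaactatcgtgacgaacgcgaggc

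RD29A, chr5:21240467-21240716, plus strand: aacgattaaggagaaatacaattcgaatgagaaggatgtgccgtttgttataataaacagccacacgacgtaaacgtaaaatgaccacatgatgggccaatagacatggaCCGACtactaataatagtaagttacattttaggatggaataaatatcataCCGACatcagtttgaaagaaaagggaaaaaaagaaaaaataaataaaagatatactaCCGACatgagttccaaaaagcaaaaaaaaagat

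RD29B, chr5:21236771-21237020, plus strand: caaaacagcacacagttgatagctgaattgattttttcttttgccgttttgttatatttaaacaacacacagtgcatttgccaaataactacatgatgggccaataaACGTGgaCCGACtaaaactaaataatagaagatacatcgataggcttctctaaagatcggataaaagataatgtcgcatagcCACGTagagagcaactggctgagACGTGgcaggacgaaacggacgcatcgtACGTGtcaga

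KIN1, chr5:5209467-5209716, plus strand: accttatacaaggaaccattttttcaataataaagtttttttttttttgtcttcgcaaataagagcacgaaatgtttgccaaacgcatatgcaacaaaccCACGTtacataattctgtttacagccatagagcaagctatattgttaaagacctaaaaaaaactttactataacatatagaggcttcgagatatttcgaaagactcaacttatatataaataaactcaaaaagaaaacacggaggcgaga

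RD29A held 3 DRE cores and 0 ABRE cores in this window, RD29B 4 ABRE cores and 1 DRE core, LEA4-5 3 ABRE cores and 1 DRE core, and KIN1 a single ABRE core. OSM34 held 0 of either. Of the members not printed, RAB18 held 3 ABRE cores, in a window that reaches into the neighbouring gene, COR15A held 1 ABRE core and 2 DRE cores, and COR47, ERD10 and P5CS1 held 0 of either. An ABRE core was thus found in 5 of the 10 genes, against 22.9% of 27443 promoters of protein-coding genes, and a DRE core in 4 of the 10, against 12%. These are letter matches in a short window, not bound sites. The start used is the outer end of the annotated gene, and elements further upstream or downstream of that start were not searched.

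**Figure D1:**
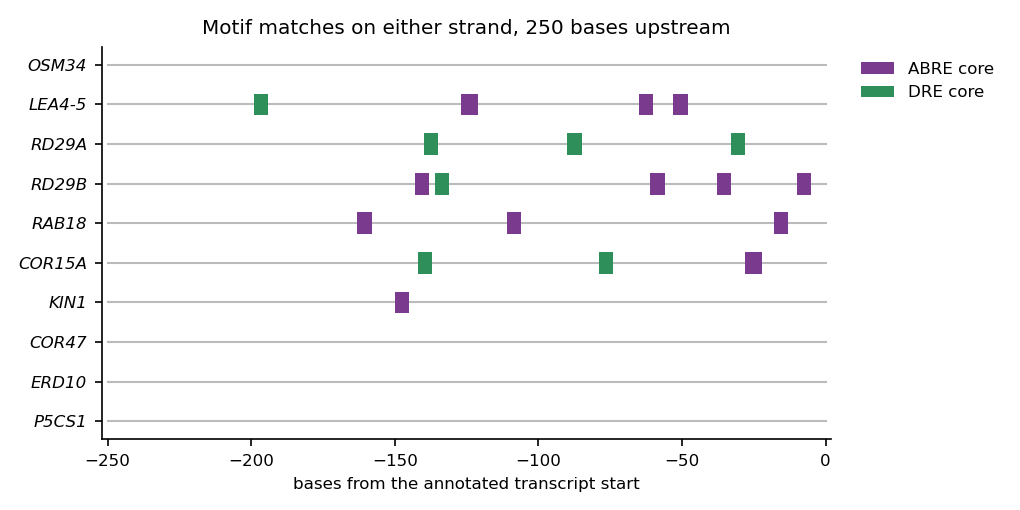
Matches of the ABRE core and the DRE core on either strand in the 250 bases before the annotated start of each of the 10 genes; the x axis gives the distance in bases from the start, and the grey line is the window searched. The DRE cores of RD29A and the ABRE cores of RD29B, LEA4-5 and RAB18 stand out, and OSM34, COR47, ERD10 and P5CS1 have no match.

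Values are FPKM, fragments per kilobase of transcript scaled to the mapped fragments of the library, as deposited by the authors, and are therefore levels per length. Their smallest steps put the depth at roughly 7.69 M to 11.8 M fragments per library, an approximation that ignores how Cufflinks shortens transcripts. Genotype differences are differences of mean log2(FPKM + 1), which understate changes of low genes, with the standard error (SE) of 1 limma fit over all 9 libraries. A gene entered that fit when its 9 libraries averaged 1 FPKM or more, which 17062 did. Against Col-0, the median difference of these genes was 0.05 for wox5-1 and -0.24 for seu-3, and the latter became 0.01 once libraries were scaled by median ratios. SEU transcript was 15.1 ± 3.14 FPKM in Col-0 and 4.71 ± 0.513 in seu-3 (SD, n = 3 each), and WOX5 was listed at 0 in the 3 wox5-1 libraries, at 0.0884, 0 and 0 FPKM in seu-3 and at 0.301 to 0.524 in Col-0, so WOX5 did not tell the mutants apart. All 8 root marker genes (PLT1, WER, SCR, SHR, SMB, CASP1, EXP7 and COBL9) were above 0 in each library. In seu-3 PLT1, WER, SCR, SHR and SMB lay below all Col-0 libraries, EXP7 and COBL9 above, and CASP1 overlapped. SHR was 7.13 to 8.60 FPKM in Col-0 and 1.88 to 3.60 in seu-3, and EXP7 431 to 484 and 530 to 630. In wox5-1 PLT1, SCR and SHR lay above Col-0, SMB and EXP7 below, and the others overlapped. The part of tissue make-up in the differences of the members was not tested. A list of 7 pollen genes summed to 81.7 FPKM in wox5-1 replicate 3, 11.2 and 4.92 in the other two wox5-1 libraries and 0.959 to 2.02 in Col-0 and seu-3, and all 7 were above 0 in wox5-1 alone, against 1 or 2 elsewhere. A list of 8 seed genes summed to 3.63 to 5.53 FPKM in seu-3, above every library of Col-0 (0.839 to 2.95) and wox5-1 (0.631 to 1.23). In seu-3 that sum was SESA4, a seed storage albumin, alone, with the other 7 genes, among them CRA1, CRC and OLEO1, listed at 0. The 6 green-tissue genes summed to 99.0 FPKM in wox5-1 replicate 3 and 40.9 to 63.5 elsewhere. In bulk tissue, fewer cells of a type and less RNA per cell cannot be told apart.

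OSM34, LEA4-5, KIN1 and RD29A stood above both other genotypes in seu-3, as did RD29B near the detection limit. The abundant dehydrins COR47 and ERD10 and the proline enzyme P5CS1 differed from Col-0 by -0.29 to 0.22 there on the log2 scale, and by 0.01, 0.38 and 0.50 when libraries were scaled by median ratios. COR15A was listed at 0 in Col-0 and seu-3. In wox5-1 the genes above the 1 FPKM filter differed from Col-0 by -0.43 to 0.17, with COR47 and ERD10 below Col-0. Below the filter, COR15A was above 0 in wox5-1 alone, at 0.254 to 3.15 FPKM, and RAB18 lay below Col-0. Of the 10 genes 7 passed the 1 FPKM filter; RD29B, RAB18 and COR15A did not, and OSM34 passed through its level in seu-3. Libraries of seu-3 lay above all Col-0 libraries in 5 of the 7 and below in 1, where 11.5% and 44.8% of all tested genes did. Those of wox5-1 lay above Col-0 in 0 and below in 2, where 30.2% and 19.9% did, and seu-3 lay above wox5-1 in 5 and below in 0, where 22.3% and 48.6% did.

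Counted over the whole fit at a limma adjusted p below 0.05, 4 of the 7 tested members were higher in seu-3 than in Col-0 and 0 lower, where 6.66% of all tested genes were higher and 34.2% lower. In wox5-1 0 were higher and 2, COR47 and ERD10, lower, where 13.7% were higher and 13.5% lower. Between the mutants 5 were higher in seu-3 than in wox5-1 and 0 lower, where 19.9% were higher and 44.6% lower. The 4 and the 5 both include OSM34, which passed the filter through seu-3. Because the genes were chosen with these contrasts known, nothing is read from these shares. The count of 4 in seu-3 was 6 when libraries were scaled by median ratios, with ERD10 and P5CS1 added. The count of 5 between the mutants was 7 with that scaling, and 6 of 10 tested with no filter on low values. The count of 2 in wox5-1 was 0 with no filter on low values and 0 without any of Col-0 replicates 1 and 2, seu-3 replicate 1 and wox5-1 replicates 1 and 3; leaving out either Col-0 replicate 3 or wox5-1 replicate 2 gave 1. Both comparisons with Col-0 share the same 3 control libraries.

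**Figure D2:**
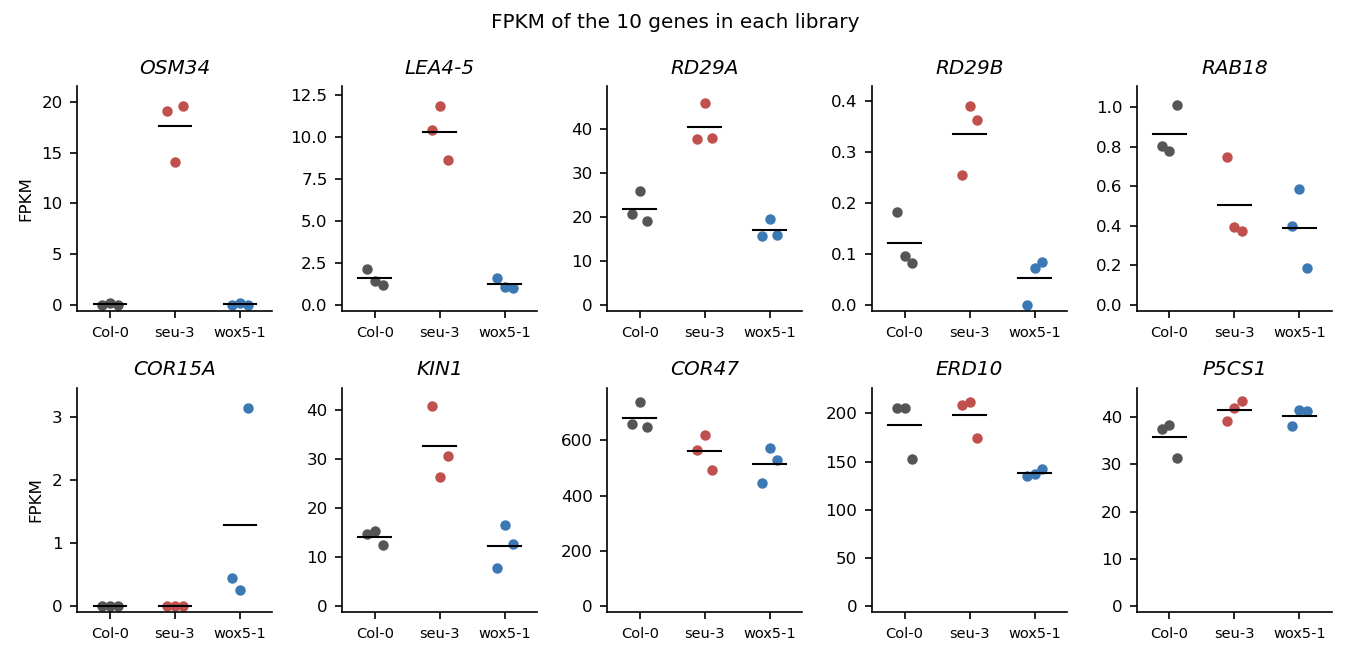
FPKM of the 10 genes in the 3 libraries of Col-0, seu-3 and wox5-1, with 1 panel and 1 linear axis from 0 for each gene; points are libraries and horizontal lines are means of 3. OSM34, LEA4-5, RD29A, RD29B and KIN1 are higher in all 3 seu-3 libraries than in any other library, whereas COR15A is above 0 in wox5-1 alone.

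OSM34 (AT4G11650, chromosome 4, 7024852 to 7026224) encodes osmotin 34, a thaumatin-like protein of the PR-5 family that accumulates under osmotic stress. Its level was 19.1, 14.1 and 19.6 FPKM in the 3 seu-3 libraries, 0, 0.146 and 0 in Col-0 and 0, 0.132 and 0 in wox5-1. The 2 values above 0 outside seu-3 stand for roughly 1.3 and 1.5 fragments, and the seu-3 values for roughly 126.3 to 252.4, so the gene went from about the detection limit to the 82.7th percentile of all genes by level. The difference of log2(FPKM + 1) between seu-3 and Col-0 was 4.14 (SE 0.16), and 7.02 with a pseudocount of 0.1 FPKM, since the size depends on the value set for near-zero libraries. A low level in Col-0 and wox5-1 was not measurable at this depth. PR5, its best known relative, was not above the filter.

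LEA4-5 (AT5G06760, chromosome 5, 2089445 to 2090430), a group 4 LEA protein that accumulates in drying seeds and water-stressed seedlings, was 10.4, 11.8 and 8.59 FPKM in seu-3, 2.13, 1.43 and 1.14 in Col-0 and 1.59, 1.08 and 0.977 in wox5-1. The seu-3 libraries lay apart from the rest and the other two genotypes overlapped. Mean levels were 6.56-fold higher in seu-3 than in Col-0, with a log2 difference of 2.14 (SE 0.18) that ranged from 2.02 to 2.29 without any 1 of the 9 libraries. The seed gene SESA4 was also highest in the 3 seu-3 libraries while the other 7 seed genes were listed at 0 there; the part of seed transcripts in the LEA4-5 difference was not tested. LEA4-5 has 3 ABRE cores and 1 DRE core before its start and OSM34 has 0 of either, and a relation of cores to levels was not tested.

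KIN1 (AT5G15960, chromosome 5, 5209717 to 5210826), a small cold- and abscisic acid-induced protein, was 40.8, 26.4 and 30.7 FPKM in seu-3, 14.8, 15.3 and 12.5 in Col-0 and 7.82, 16.5 and 12.7 in wox5-1. Again all seu-3 libraries were above all others, with replicate 1 the highest, and Col-0 and wox5-1 overlapped. The seu-3 mean was 2.3-fold that of Col-0 and the log2 difference 1.13 (SE 0.24). KIN2 (COR6.6), the neighbouring copy, was far more abundant, at 315 ± 29.6 FPKM in Col-0 against 519 ± 51.6 in seu-3 and 301 ± 17.4 in wox5-1. KIN2 rose in seu-3 by 0.72 (SE 0.10, limma adjusted p = 0.00281), and its share in the reads of KIN1 was not tested.

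RD29A (AT5G52310, chromosome 5, 21240717 to 21243644), a hydrophilic protein induced by desiccation, cold and salt, was 37.6, 45.8 and 37.8 FPKM in seu-3, 20.5, 25.9 and 19.0 in Col-0 and 15.7, 19.4 and 15.8 in wox5-1. The seu-3 libraries were again above all others, 1.85-fold over Col-0 in the mean, with a log2 difference of 0.87 (SE 0.14). The wox5-1 mean was the lowest, with a log2 difference from Col-0 of -0.34 (SE 0.14), and the 2 genotypes overlapped at 19.0 to 19.4 FPKM. RD29B (AT5G52300, chromosome 5, 21237021 to 21239531), its tandem partner, which answers mainly to abscisic acid, was barely present. Its level was 0.254, 0.389 and 0.362 FPKM in seu-3, 0.182, 0.0960 and 0.0820 in Col-0 and 0, 0.0720 and 0.0841 in wox5-1. These values correspond to about 6.5 to 8.3 fragments per seu-3 library and at most 3.2 elsewhere, so that no fold is given. The order of genotypes was that of RD29A, and the part of RD29A fragments in the RD29B values was not tested. Per length, RD29A was thus the dominant copy of the pair in each library.

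The dehydrins, LEA proteins with lysine-rich segments, were split by level. COR47 (AT1G20440, chromosome 1, 7084409 to 7086873) was the most abundant of the 10 genes and stood at or above the 99.2th percentile of all genes in each genotype. Its level was 659, 739 and 648 FPKM in Col-0 against 566, 621 and 494 in seu-3 and 447, 571 and 531 in wox5-1. Both mutants lay below Col-0 without overlap and overlapped each other, with a log2 difference from Col-0 of -0.29 (SE 0.12) in seu-3 and -0.41 (SE 0.12) in wox5-1. The seu-3 difference equals that of the median gene to within 0.04 and was 0.01 with median-ratio scaling.

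ERD10 (AT1G20450, chromosome 1, 7087903 to 7089606), the dehydrin beside COR47, was 205, 206 and 153 FPKM in Col-0 against 209, 212 and 174 in seu-3 and 135, 137 and 142 in wox5-1. Col-0 and seu-3 overlapped, and wox5-1 lay below both, with a log2 difference from Col-0 of -0.43 (SE 0.13). On these FPKM ERD10 set wox5-1 apart from the other two genotypes and COR47 set Col-0 apart. With median-ratio scaling COR47 also had seu-3 near Col-0, with 0.45 between the mutants, and ERD10 was 0.38 in seu-3 against Col-0. RAB18 (AT5G66400, chromosome 5, 26518277 to 26519447), a dehydrin that depends on abscisic acid, was low throughout, at 0.804, 0.777 and 1.01 FPKM in Col-0 against 0.748, 0.391 and 0.374 in seu-3 and 0.399, 0.584 and 0.186 in wox5-1. Both mutants lay below Col-0 in FPKM, on values of about 1.5 to 9.4 fragments. For seu-3 the nearest libraries were 0.748 and 0.777 FPKM. Replicate 1 of seu-3 held about 9.4 fragments, against 6.6 to 9.0 in Col-0. The log2 difference of -0.32 in seu-3 is near the median of -0.24 for all tested genes, so a direction particular to RAB18 is not shown.

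COR15A (AT2G42540, chromosome 2, 17710441 to 17712330), a chloroplast-targeted cold-regulated protein that protects membranes from freezing, was listed at 0 in all Col-0 and seu-3 libraries. In wox5-1 it was 0.442, 0.254 and 3.15 FPKM, highest in replicate 3, the library with the highest sums of pollen and green-tissue genes. The order of the 3 wox5-1 libraries was the same for COR15A and for the pollen sum; the part of pollen or green tissue in this signal was not tested. COR15B, its neighbour, was listed at 0 in 8 libraries and at 0.192 FPKM in wox5-1 replicate 1. The pattern was not particular to COR15A. BGLU18, RD20 and RD22, listed genes named after their values were seen, were also highest in wox5-1 replicate 3. They stood there at 1.90, 1.33 and 0.511 FPKM, and at no more than 0.173 in any Col-0 or seu-3 library.

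P5CS1 (AT2G39800, chromosome 2, 16598072 to 16603319) is the stress-regulated first enzyme of proline synthesis, and its levels in the 3 genotypes lay close together. Its level was 37.4, 38.3 and 31.3 FPKM in Col-0 against 39.2, 41.8 and 43.4 in seu-3 and 38.0, 41.5 and 41.1 in wox5-1. The log2 difference from Col-0 was 0.22 (SE 0.10) in seu-3, where the libraries did not overlap, and 0.17 (SE 0.10) in wox5-1, where they did; with median-ratio scaling the first was 0.50. P5CS2, its housekeeping copy, was more abundant, at 114 ± 17.1 FPKM in Col-0 against 93.9 ± 4.46 in seu-3 and 75.9 ± 17.5 in wox5-1.

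**Figure D3:**
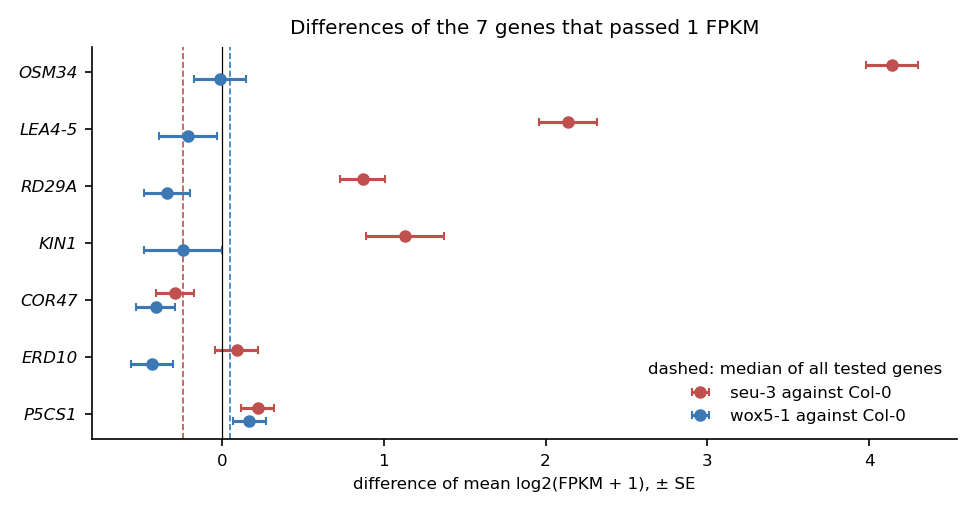
Difference of mean log2(FPKM + 1) from Col-0 for the 7 genes that passed the 1 FPKM filter, in seu-3 (red) and wox5-1 (blue), with the standard error of the fit; dashed lines mark the median of all tested genes, -0.24 and 0.05. The seu-3 points run from -0.29 for COR47 to 4.14 for OSM34 and the wox5-1 points from -0.43 to 0.17. Both series share the Col-0 libraries.

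The rest of the pathway was read from 8 lists of 110 other genes, 67 of them above the filter, with p-values adjusted over all 17062 genes. In seu-3 10 of the 67 rose and 19 fell, 43.3% in all, beside 40.8% of all tested genes. Their median difference was -0.14, beside -0.24 for all genes. Scaled by median ratios, 22 rose and 9 fell, and with quantile normalization 14 rose and 9 fell; over all genes these scalings turned 1136 up and 5830 down into 3186 up and 2934 down, and 2280 up and 2350 down. With no filter on low values 13 listed genes rose and 20 fell, beside 1135 and 5763 of all genes. The 10 that rose numbered 6 without Col-0 replicate 3 or seu-3 replicate 1, and the 19 that fell 12 without Col-0 replicate 2. AHK1, among the 19, fell below the filter without that library, Col-0 replicate 3 or wox5-1 replicate 2, and was not tested in those fits. Of the 29 called genes 13 kept their call in every alternative in which they were tested; among those were PYL2, PYL5, PYL6, SNRK2.5, ATHB7, COR413PM1, KIN2, SAG21, PDH1, PROT1 and AHK1.

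Nearest to the members by function were the other LEA, dehydrin and cold-regulated genes. Of 10 tested in seu-3, 4 rose, 1 fell and 5 did not pass, where 6.66% of all tested genes rose and 34.2% fell. The list median was 0.33, beside -0.24 for all genes. COR413PM1, a plasma membrane protein induced by cold, went from 975 ± 89.3 FPKM in Col-0 to 1713 ± 67.1 in seu-3 (log2 difference 0.82, SE 0.11, adjusted p = 0.00238). SAG21 (LEA5), a mitochondrial LEA protein of the root that overlaps an annotated microRNA gene, went from 289 ± 44.2 to 464.0 ± 37.5 FPKM (log2 difference 0.69, SE 0.11, adjusted p = 0.00393). RCI2B, a small hydrophobic protein induced by cold, was 2337 ± 456 against 1451 ± 215 FPKM (log2 difference 0.68, adjusted p = 0.0132). Its call, named like that of COR413IM1 after the values were seen, was lost with quantile normalization (adjusted p = 0.175) and without Col-0 replicate 3 or seu-3 replicate 1 (adjusted p = 0.0511 and 0.0507). COR413IM1, a chloroplast envelope protein, fell from 2.87 ± 0.881 to 0.683 ± 0.387 FPKM. The dehydrins ERD14 and LTI30 differed from Col-0 by -0.06 and -0.15, neither past the test. The 4 genes that rose were KIN2, COR413PM1, SAG21 and RCI2B, none of them a dehydrin.

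Upstream, the receptors moved both ways in seu-3: 1 rose, 4 fell and 4 of 9 did not pass. Of all tested genes 6.66% rose and 34.2% fell. For the receptors median-ratio scaling gave 2 up and 2 down. PYL2 went from 8.69 ± 3.20 to 31.1 ± 4.80 FPKM (log2 difference 1.76, SE 0.29, adjusted p = 0.00398), while PYL5 went from 62.7 ± 14.98 to 27.6 ± 6.78 (log2 difference -1.16, SE 0.23, adjusted p = 0.00580). PYL8, a receptor known for root responses, changed by -0.53 (adjusted p = 0.00497), and by less than the threshold with median-ratio scaling (adjusted p = 0.0523). Of the phosphatases 1 of 5 rose, ABI1, which overlaps another gene, by 0.37 (adjusted p = 0.0226). Its call was lost without any of Col-0 replicate 3 and seu-3 replicates 1 and 3 (adjusted p from 0.0544 to 0.0801), while scaling by median ratio or quantiles put 4 of the 5 up. Below the filter, HAI1 was 0.327 FPKM in Col-0 and 1.31 in seu-3, and AHG1 0.714 and 1.16. HAI3 went the other way, at 0.316 and 0.0448 FPKM. HAI1, AHG1 and HAI3 were named after their values were seen, and libraries of the 2 genotypes did not overlap for them. Below the filter the share of such genes was not counted. Other lists held more of them: LEA7 (0.342 and 1.94 FPKM) and ATHB12 (0.329 and 1.75) were higher in seu-3, for example. SNRK2.8 (1.29 and 0.244) and HKT1 (0.859 and 0.489) were lower.

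Among the SnRK2 kinases 4 of 8 fell, 0 rose and 4 did not pass, where 34.2% of all tested genes fell. The 4 that fell were 2 with median-ratio scaling, 1 with quantile normalization and 2 without Col-0 replicate 1 or seu-3 replicate 3. SNRK2.5, which overlaps another gene, changed by -0.77 (adjusted p = 0.00545). SNRK2.7 changed by -1.10 (adjusted p = 0.0128, and 0.063 with quantile normalization). SNRK2.1 and SNRK2.6 changed by -0.34 and -0.55 (adjusted p = 0.02 and 0.0254), and both lost the call with either scaling. SNRK2.2 and SNRK2.3, named like SNRK2.6 after their values were seen, differed by -0.07 and -0.44, with no call (adjusted p = 0.666 and 0.148). Of 8 transcription factors 2 rose and 4 fell, beside 6.66% and 34.2% of all tested genes. Median-ratio and quantile scaling left 1 and 0 down. Without Col-0 replicate 2 or seu-3 replicate 1 the fall was in 2, and without Col-0 replicate 3 or seu-3 replicate 3 in 1. ATHB7, a homeodomain protein induced by abscisic acid and water deficit, was 2.36 ± 0.311 FPKM in Col-0 and 6.88 ± 0.476 in seu-3 (log2 difference 1.23, SE 0.24, adjusted p = 0.00566). It was the single factor to rise without any 1 library other than Col-0 replicate 1 and wox5-1 replicate 3, since ABF2, an ABRE-binding factor named after its values were seen, did not pass then. ICE1, an activator of CBF genes, changed by -0.72 (adjusted p = 0.00457, and 0.0888 with quantile normalization).

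In abscisic acid synthesis and turnover 1 of 7 rose in seu-3, the catabolic hydroxylase CYP707A1, by 0.77 (SE 0.24, adjusted p = 0.0282). That call was lost without any of Col-0 replicate 3 and seu-3 replicates 1 and 3 (adjusted p from 0.0767 to 0.0774). NCED3, the dehydration-induced enzyme of synthesis, named after its values were seen, was 3.25 ± 0.488 FPKM in Col-0 against 3.48 ± 0.304 in seu-3 and 3.04 ± 0.818 in wox5-1, with no call in either mutant. Of 9 genes of proline and osmolyte metabolism 1 rose and 2 fell in seu-3, beside 6.66% and 34.2% of all tested genes. PDH1 (ERD5), the proline dehydrogenase that breaks proline down, was 139, 361 and 536 FPKM in Col-0 and 37.7, 42.7 and 33.1 in seu-3, with 220.1, 367 and 159 in wox5-1. It was 9.12-fold lower in seu-3 than in Col-0 (log2 difference -2.96, SE 0.45, adjusted p = 0.00304), with a wide spread among the Col-0 libraries. The proline transporter PROT1 rose by 0.49 (adjusted p = 0.0107) and the reductase P5CR changed by -0.70 (adjusted p = 0.0131, and 0.0699 with median-ratio scaling).

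In the list of other dehydration and salt response genes 4 of 11 fell in seu-3 and 0 rose, beside 34.2% and 6.66% of all tested genes. AHK1, a histidine kinase proposed as an osmosensor, was 1.67 ± 0.192 FPKM in Col-0 and 0.350 ± 0.180 in seu-3 (log2 difference -0.99, adjusted p = 0.00490), and ERD6, a sugar transporter, changed by -0.88 (adjusted p = 0.00999). OSCA1, a calcium channel opened by hyperosmotic stress, changed by -0.42 (adjusted p = 0.0130, and 0.316 with median-ratio scaling). Its call was also lost without Col-0 replicate 2 or seu-3 replicate 1 (adjusted p = 0.0531 and 0.0519). The 4 that fell were 1 without Col-0 replicate 2 and 2 without Col-0 replicate 3, with AHK1 untested in either case. Median-ratio scaling gave 2 up and 2 down.

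**Figure D4:**
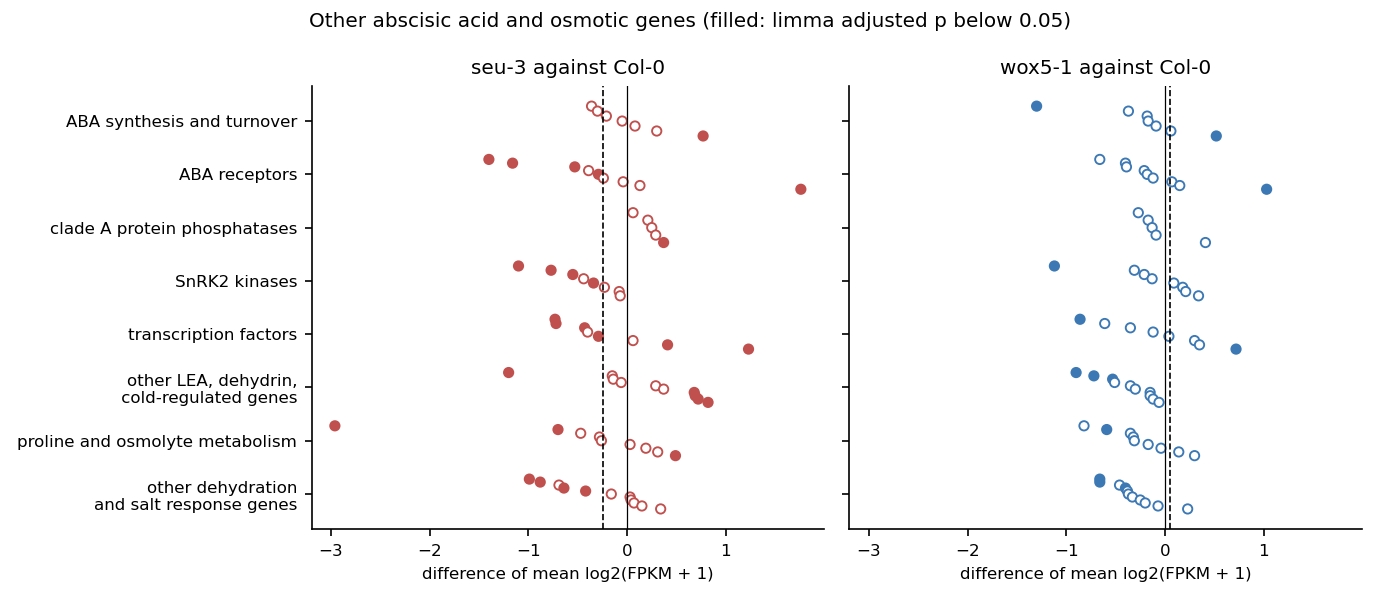
Difference of mean log2(FPKM + 1) from Col-0 for the 67 tested genes of the 8 lists, in seu-3 (left) and wox5-1 (right), 1 point per gene and 1 row per list; filled points have a limma adjusted p below 0.05 and the dashed line is the median of all tested genes. In seu-3 10 points are filled to the right and 19 to the left of 0, and in wox5-1 3 and 10.

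In wox5-1 3 of the 67 rose and 10 fell, 19.4% in all, beside 27.3% of all tested genes, with a median of -0.18 beside 0.05. In the LEA, dehydrin and cold-regulated list 3 of 10 fell, 0 rose and 7 did not pass, with differences from -0.90 to -0.06. Of all tested genes 13.5% fell and 13.7% rose. SAG21 went from 289 ± 44.2 to 153 ± 1.42 FPKM (log2 difference -0.90, SE 0.11, adjusted p = 0.00176). ERD14, the dehydrin most like ERD10 outside the members, went from 516 ± 41.4 to 314 ± 40.6 (log2 difference -0.72, SE 0.11, adjusted p = 0.00383). LTI30, a cold-induced dehydrin, changed by -0.53 (adjusted p = 0.0276). The call of LTI30 was lost without any of Col-0 replicates 2 and 3 and wox5-1 replicates 1 and 3 (adjusted p from 0.0594 to 0.101).

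Elsewhere in wox5-1, CYP707A3, a hydroxylase that inactivates abscisic acid, fell from 9.63 ± 1.74 to 3.32 ± 0.609 FPKM (log2 difference -1.30, SE 0.18, adjusted p = 0.00221), and ABF1, an ABRE-binding factor that overlaps another gene, rose from 10.5 ± 0.395 to 18.0 ± 2.28 (log2 difference 0.72, adjusted p = 0.00419). ERD7, a dehydration-induced protein of the senescence family, changed by -0.66 (adjusted p = 0.00188). PYL2 rose here too, by 1.03 (adjusted p = 0.0315), a call lost without any of Col-0 replicates 1 and 3 and wox5-1 replicate 1 (adjusted p from 0.0839 to 0.0978). P5CS2 changed by -0.59 (adjusted p = 0.0307), a call lost without any of Col-0 replicates 2 and 3 and wox5-1 replicates 1 and 3 (adjusted p from 0.0681 to 0.105). SNRK2.7 changed by -1.12 (adjusted p = 0.0210), lost without any of Col-0 replicates 2 and 3 and wox5-1 replicate 1 (adjusted p from 0.0541 to 0.0593). The other 4 calls, ATHB7 (-0.86, adjusted p = 0.0317), ABA2 (0.52, adjusted p = 0.0252), ERD6 (-0.66, adjusted p = 0.0436) and ERD1 (-0.40, adjusted p = 0.0456), were each lost without any of at least 4 libraries, Col-0 replicates 2 and 3 and wox5-1 replicate 1 among them. Of the 13 called genes 5 kept their call in every alternative, CYP707A3, ABF1, SAG21, ERD14 and ERD7. The 10 that fell were 4 without Col-0 replicate 2 or wox5-1 replicate 1 and 6 without Col-0 replicate 3.

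Set directly against wox5-1, seu-3 had 22 of the 67 genes higher and 16 lower, 56.7% in all, beside 64.5% of all tested genes. In the LEA, dehydrin and cold-regulated list 8 of 10 were higher, 1 lower and 1 did not pass. Of all tested genes 19.9% were higher and 44.6% lower. The list median was 0.72 beside -0.27 for all genes. The 8 were 6 without seu-3 replicate 1 and 7 or 8 without any other library. SAG21 differed most within that list, at 1.59 (SE 0.11, adjusted p = 3.6e-05), and ATHB7 most among all 67 genes in that direction, at 2.09 (SE 0.24, adjusted p = 0.000142). Among the members the mutants differed by 4.14 in OSM34, 2.35 in LEA4-5, 1.37 in KIN1, 1.21 in RD29A and 0.52 in ERD10, and by 0.12 in COR47 and 0.04 in P5CS1. With median-ratio scaling COR47 and P5CS1 differed by 0.45 and 0.36.

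For each tested member the gene outside the set with the most similar profile was found, by the root mean square difference of log2(FPKM + 1) over the 9 libraries after centring each gene on its mean. For RD29A it was IBH1 (0.115), for KIN1 ABCB15 (0.157), for LEA4-5 CEL3 (0.283), for COR47 CCoAOMT1 (0.0674), for ERD10 AT2G41120 (0.0845) and for P5CS1 AT5G47540 (0.0528). The nearest to OSM34, AT4G16260, was still 0.797 log2 units away. CEL3 was 15.8 ± 2.15 FPKM in Col-0 against 77.5 ± 12.7 in seu-3 and 15.3 ± 4.22 in wox5-1, the pattern of LEA4-5 at a higher level, and IBH1 was 19.8 ± 2.07, 34.3 ± 2.63 and 14.4 ± 0.504.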

How the data were processed

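RNA sequencing of 9 root tip samples, 3 per genotype by their titles, was used. The deposited values are FPKM computed by the authors, with Bowtie, Cufflinks and TAIR10 named in the submitters' processing notes; versions, annotation and strandedness are not given in the sources used here. The 10 members, the 8 lists (110 genes) and the tests were chosen with earlier results of these data known. Genes averaging 1 FPKM or more (17062 of 33560) were fitted as log2(FPKM + 1) with limma 3.58.1 in R 4.3.3, 1 genotype fit over 9 libraries with a trended variance prior and Benjamini-Hochberg adjustment over all tested genes. The fit was also run on simulated data in which few genes changed and no shift was common to all. That setting is unlike seu-3 against Col-0, so nothing is read from it for that contrast. Named genes were each member, up to 3 called genes per list and mutant by smallest p (the most abundant where none was called), relatives of members and nearest profiles; the text prints a part. Alternatives were a pseudocount of 0.1, no filter, a filter at 5 FPKM, median-ratio and quantile scaling, replicate number as a block, the 6 libraries compared and each library left out. Depth was approximated from the commonest smallest value of FPKM per transcript length among genes of 1 transcript. Positions, sequences and names are from RefSeq TAIR10.1, where 32826 identifiers and all 10 members had an entry; protein sequences were not used here. Python 3.11.15 made tables and figures.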

Additional observations from a re-analysis of the deposited data

How the results depend on the processing

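Differences of the 7 tested members from Col-0 in seu-3 kept their sign under every alternative except COR47, at 0.01 with median-ratio scaling, and ERD10, at -0.06 without 1 library; in wox5-1 KIN1 and OSM34 crossed 0 without 1 library (up to 0.03 and 0.06). PYL4 in seu-3 went from -0.29 to 0 with median-ratio scaling. For seu-3 against Col-0 that scaling gave 3186 genes up and 2934 down, with 22 and 9 on the lists, and quantile normalization 2280 up and 2350 down, with 9 down on the lists. For seu-3 against wox5-1 they gave 5617 and 5284 up, and quantile normalization 5034 down. The cause was not tested. Without any 1 library the counts for wox5-1 against Col-0 were 524 to 3270 up and 997 to 2358 down, and on the lists 1 to 3 up and 4 to 14 down. For seu-3 against Col-0 they were 681 to 1305 up and 3894 to 5956 down, and on the lists 6 to 11 up and 12 to 21 down. For seu-3 against wox5-1 they were 2760 to 3404 up and 6882 to 7604 down, and on the lists 18 to 23 up and 15 to 16 down. The replicate numbers share no stated origin, and same-numbered deviations correlated at -0.26 to 0.19; with the replicate block wox5-1 against Col-0 had 1432 genes up, and the totals of listed genes moved by at most 1.5 times. Depth limits RD29B, RAB18 and, outside seu-3, OSM34, each on at most 9.4 fragments per library, and COR15A, on roughly 6.8, 3.9 and 37.4 fragments in wox5-1 and 0 elsewhere.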
